A study of Mus musculus with 2 samples.

Results

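The imprinted genes of the mouse, which are transcribed mainly from the copy inherited from one parent, were examined as a group of 46 genes in 20 chromosomal clusters. They were taken by name from a list of mouse imprinted genes, and a peak was counted for a gene when the authors had annotated the peak with that gene's symbol. Of the 18187 genes that had a peak in at least 1 library, 19 belonged to the group, and the other 27 imprinted genes had none. The data were peak lists from CUT&Tag, in which the transposase Tn5 is carried by an antibody to its target on chromatin and tags the DNA around it, made here with an antibody to H3K36me2. There was 1 library of colon tissue from Nsd2 fl/fl mice, which carry a floxed Nsd2 gene and are called control, and 1 from Nsd2 ΔIE mice, in which Villin-Cre deletes the floxed gene in the intestinal epithelium and which are called knockout. Both genotypes had a C57BL/6J background, were male littermates aged 7 to 8 weeks at the start, and received HFCD, a high-fat cholesterol diet, for 18 weeks by the study's methods and for 16 weeks by the deposited design text.

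Imprinting is set up in the germ line by DNA methylation of CpG-rich control regions, and in several clusters a long noncoding RNA made from the paternal copy silences protein-coding genes in cis. H3K36me2 is the histone mark deposited by NSD2 and its relative NSD1, it lies broadly over intergenic and genic chromatin, and in germ cells and stem cells it helps to direct the DNA methyltransferase DNMT3A. The lists carry no information on the parental copy, so every value below is the sum over both copies. A histone peak does not measure expression, and in whole colon tissue a smaller number of cells of one type and less of the mark per cell cannot be told apart. With 1 library per genotype, no spread between replicates is known and the values stand side by side without a test.

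The sequences below show 4 start sites on which the results turn. They are RefSeq promoter windows of GRCm38.p6, from 250 bases before to 50 after a transcription start site (TSS), written 5′ to 3′ on the strand of the gene, with every CG dinucleotide, the site of DNA methylation, in capitals. The list coordinates elsewhere in the text belong to another assembly, which the lists do not name, and cannot be set beside these. Ascl2 (chr7:142969215-142969514, minus strand) had a peak over the start site in both libraries, and Peg3 (chr7:6730370-6730669, minus strand) had one within 1 kb of an annotated start in both. Igf2r (chr17:12769657-12769956, minus strand) had one in the Nsd2 ΔIE library, and Kcnq1ot1 (chr7:143296498-143296797, minus strand) had a peak close to its start in the Nsd2 fl/fl library. Igf2r and Kcnq1ot1 were chosen for display after their values were seen.
Peg3: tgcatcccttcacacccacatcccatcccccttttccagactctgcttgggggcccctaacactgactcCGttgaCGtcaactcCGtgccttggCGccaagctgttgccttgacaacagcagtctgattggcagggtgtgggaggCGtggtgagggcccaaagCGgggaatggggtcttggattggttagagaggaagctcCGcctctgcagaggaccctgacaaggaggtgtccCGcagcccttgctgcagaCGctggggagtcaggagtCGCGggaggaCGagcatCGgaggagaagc
Ascl2: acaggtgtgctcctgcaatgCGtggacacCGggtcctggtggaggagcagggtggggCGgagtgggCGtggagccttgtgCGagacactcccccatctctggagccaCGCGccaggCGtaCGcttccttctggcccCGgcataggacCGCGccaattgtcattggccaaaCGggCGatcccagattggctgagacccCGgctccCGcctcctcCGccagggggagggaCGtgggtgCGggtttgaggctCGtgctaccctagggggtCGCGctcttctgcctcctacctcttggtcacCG
Igf2r: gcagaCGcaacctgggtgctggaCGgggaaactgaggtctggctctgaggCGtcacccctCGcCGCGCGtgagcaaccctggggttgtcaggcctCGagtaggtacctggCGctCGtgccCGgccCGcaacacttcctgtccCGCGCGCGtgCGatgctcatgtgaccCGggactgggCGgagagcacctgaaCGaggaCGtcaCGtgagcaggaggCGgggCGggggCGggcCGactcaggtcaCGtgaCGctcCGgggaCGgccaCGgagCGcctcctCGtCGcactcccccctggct
Kcnq1ot1: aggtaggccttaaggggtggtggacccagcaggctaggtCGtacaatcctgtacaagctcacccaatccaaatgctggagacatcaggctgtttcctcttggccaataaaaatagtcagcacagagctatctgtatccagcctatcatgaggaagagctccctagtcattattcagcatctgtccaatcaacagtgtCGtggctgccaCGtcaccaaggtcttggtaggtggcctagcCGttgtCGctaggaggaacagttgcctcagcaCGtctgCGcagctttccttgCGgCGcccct

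These windows held 13 CG dinucleotides for Peg3, 23 for Ascl2, 34 for Igf2r and 9 for Kcnq1ot1, against a median of 7 over 32851 promoter windows of all genes. Windows were found for 37 of the 46 imprinted genes, 55 windows in all, with a median of 15 CG dinucleotides and a GC content of 57.3%, against 52.7% over all windows. The hexamer TGCCGC, the core that the imprint-protecting zinc finger protein ZFP57 recognises when it is methylated, was searched on both strands. It was present in 13 of the 55 windows, or 23.6%, and in 11.6% of all windows. None of the 4 windows printed here held it. Some windows of the same gene overlap, those of Mest among them, so the windows are not independent. The hexamer itself holds a CG, and the part of CG content in these shares was not tested.

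Peaks numbered 19976 in Nsd2 fl/fl, at a median width of 4643 bp, and 23518 in Nsd2 ΔIE, at a median width of 3426 bp, so that knockout colon had more and narrower ones. Their covered lengths were 102992493 and 88118230 bp, a log2 ratio of −0.23 (Nsd2 ΔIE over Nsd2 fl/fl), and the read depth behind them is unknown. Each peak carries a summed signal, which started at 21783 in the Nsd2 fl/fl list and at 16571 in the Nsd2 ΔIE list. For this reason the signal served in the main results to rank peaks within a list. Signals printed for single peaks or drawn as box heights are description and measure no difference between the libraries. For the deleted gene, Nsd2, control colon had 0 listed peaks and knockout colon had 1, of 3766 bp at the promoter, which does not check the deletion. Among 10 epithelial marker genes, 4 had a peak in control and 7 in knockout colon. Among 5 immune genes the numbers were 1 and 2, and among 5 stromal and muscle genes they were also 1 and 2. Over all protein-coding and long noncoding genes of RefSeq, the shares with a peak were 30.3% and 32.7%. The marker lists are short, and no difference is read from these counts.

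Imprinted genes carried a peak about as often as other genes did. In the Nsd2 fl/fl library 15 of the 46 had one, a share of 32.6% (95% Wilson interval 20.9% to 47.0%, which covers counting error only), against 30.3% of the 34631 protein-coding and long noncoding genes of RefSeq. In the Nsd2 ΔIE library 16 had one, a share of 34.8% (22.7% to 49.2%), against 32.7%. Both libraries listed a peak for 12 imprinted genes, or 26.1% (15.6% to 40.3%), against 19.6%. Blcap, Ube3a and Ddc had a peak in Nsd2 fl/fl only, and H13, Gnas, Commd1 and Igf2r in Nsd2 ΔIE only. The peaks of H13, Gnas, Commd1 and Igf2r had signals from 17135 to 21079, all below 21783, where the Nsd2 fl/fl list starts. Those of Blcap, Ube3a and Ddc had signals from 23666 to 37316. The part of the different starting signals in these counts was not tested. Genes that had a peak were longer, with a median RefSeq length of 62425 bp against 30734 bp for those without, and the part of gene length in these counts was not tested.

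The 27 genes without a peak in either library were Zdbf2, Nnat, Peg10, Sgce, Asb4, Mest, Copg2, Klf14, Nap1l5, Herc3, Usp29, Snrpn, Ndn, Magel2, Mkrn3, Peg12, Inpp5f, H19, Igf2, Plagl1, Grb10, Meg3, Rtl1, Rian, Mirg, Peg13 and Impact. By cluster, 13 of the 20 had a member with a peak in at least 1 library and 8 had one in both. Of the 20 genes that are expressed from the maternal copy in at least some tissues, 11 had a peak in at least 1 library, a 95% interval of 34.2% to 74.2%, and of the 26 expressed from the paternal copy 8 did, an interval of 16.5% to 49.99%. These Wilson intervals overlapped, both held the share of all RefSeq genes with a peak in at least 1 library, 43.4%, and no difference is read from them. Among the 7 long noncoding RNA genes of the group, Kcnq1ot1 and Airn had a peak assigned to them, against the same 43.4% of all RefSeq genes.

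The length that a gene's peaks covered was less in Nsd2 ΔIE for 9 of the 19 genes with a peak, similar for 3 and more for 7. A gene was counted as less or more where the log2 ratio of covered length passed 0.5 in either direction or where only 1 library listed a peak. The corresponding shares were 47.4%, 15.8% and 36.8% of the imprinted genes, against 43.3%, 16.9% and 39.7% of all 18187 genes with a peak, so the split was near that of the whole lists. Mcts2, Blcap, Ube3a, Kcnq1ot1, Cdkn1c, Rasgrf1, Ddc, Dio3 and Airn had less, Ppp1r9a, Peg3 and Dlk1 had similar, and H13, Gnas, Phlda2, Ascl2, Commd1, Trappc9 and Igf2r had more covered length. For H13, Commd1 and Igf2r this holds only for peaks assigned to them, since peaks of any name covered less of each gene in Nsd2 ΔIE. Ascl2 and Trappc9, each with a log2 ratio of 0.52, lay just past the limit, and Ppp1r9a, with 0.49, just inside it. The 12 imprinted genes with peaks in both libraries had a median log2 ratio of −0.53, from −2.11 for Kcnq1ot1 to 0.74 for Phlda2, and the 7870 genes with peaks in both had a median of −0.32.

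**Figure D1:**
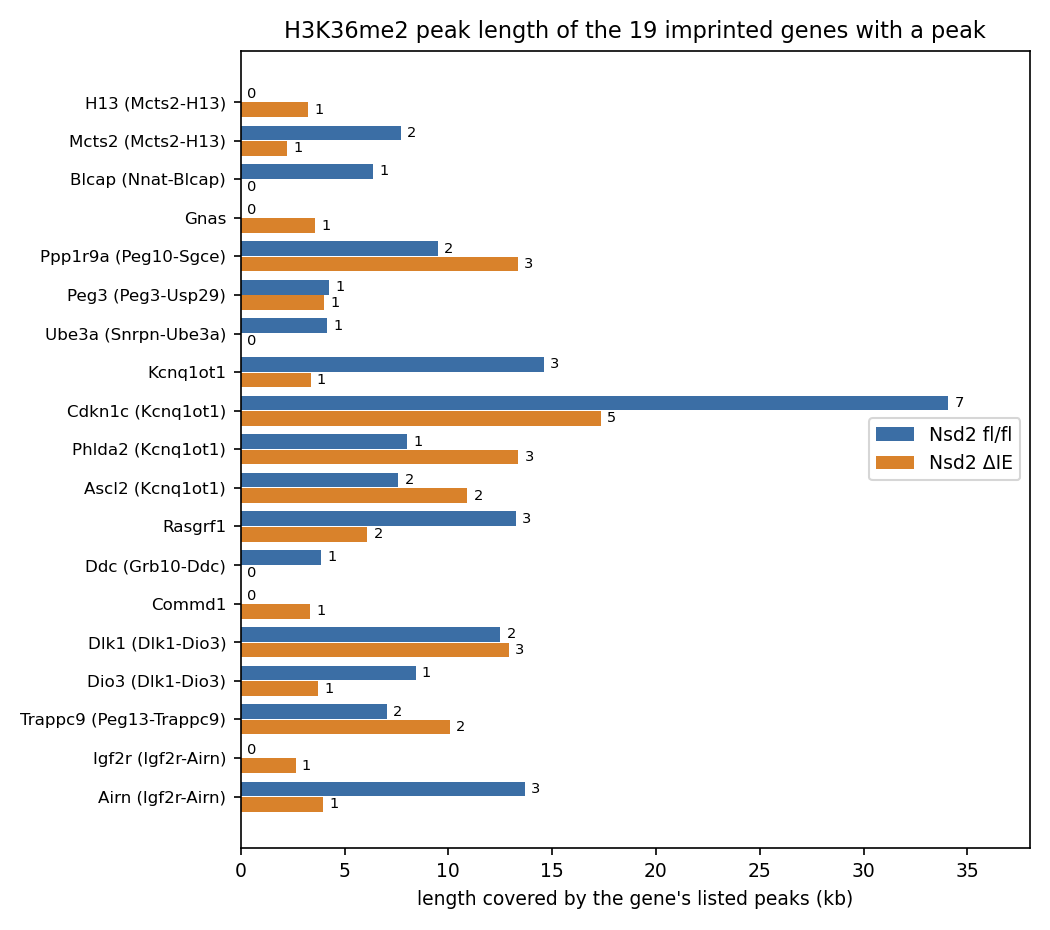
Length covered by the listed H3K36me2 peaks (x axis, kb) of each of the 19 imprinted genes with a peak (y axis, with the cluster in parentheses), in the Nsd2 fl/fl library (blue) and the Nsd2 ΔIE library (orange); the number at each bar is the number of peaks. Cdkn1c has the longest bars in both libraries, 34086 and 17358 bp, and 7 genes have a bar in 1 library only.

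The Kcnq1ot1 cluster on chromosome 7 had the most peaks of any imprinted cluster, with 13 of the 32 imprinted-gene peaks in control and 11 of the 29 in knockout colon. It was also the only cluster of more than 2 members in which every member had a peak in both libraries. Kcnq1ot1, made from the paternal copy inside Kcnq1, silences the neighbouring genes in cis. Cdkn1c encodes the cyclin-dependent kinase inhibitor p57, Phlda2 a growth-restraining protein of the placenta, and Ascl2 a transcription factor of intestinal stem cells. The covered length of these 4 genes was 64301 bp in control and 45006 bp in knockout colon, a log2 ratio of −0.51, but it did not move one way: Kcnq1ot1 and Cdkn1c had less and Phlda2 and Ascl2 had more. Over the strongest 50% of each list the lengths were 37293 and 36680 bp, a log2 ratio of −0.02. With equal numbers of peaks in the 2 lists they were 64301 and 41946 bp, a log2 ratio of −0.62.

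For Cdkn1c, 7 peaks covered 34086 bp in control and 5 peaks covered 17358 bp in knockout colon. The strongest of them in Nsd2 fl/fl, at chr7:143009396-143017955, was 8560 bp wide with a summed signal of 70011, rank 531 of the 19976 peaks in its list, and it spanned the start site at 143014787. In Nsd2 ΔIE, the promoter peak assigned to Cdkn1c was 4480 bp wide with a signal of 23540, rank 7390 of 23518. It ran from 143009026 to 143013505 and ended 1282 bp from the start site. A further Nsd2 ΔIE peak, from 143017201 to 143020742 and assigned to the neighbouring gene Gm33663, lay on the other side, so that the single Nsd2 fl/fl peak faced a pair of narrower ones with the start site between them. Together the pair overlapped the Nsd2 fl/fl peak over 4865 bp, or 56.8% of it.

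The other Cdkn1c peaks lay between 10559 and 58771 bp from its start, 3 of them in each library inside an intron of Kcnq1 and the rest intergenic. The Nsd2 fl/fl peaks at 142951982, 142974704 and 142988387 were each overlapped by an Nsd2 ΔIE peak, over 1004, 3507 and 3076 bp. The peak that both libraries placed near the end of Kcnq1, from 142974704 to 142979265 in control and from 142973482 to 142978210 in knockout colon, was close in width, 4562 and 4729 bp. Its rank was 6437 in the first list and 2286 in the second.

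For Kcnq1ot1, 3 peaks covered 14600 bp in control and 1 peak covered 3371 bp in knockout colon, the lowest log2 ratio of the group at −2.11. The widest Nsd2 fl/fl peak, 7567 bp from 142815551 to 142823117 and rank 1874, lay in the body of the transcript 27167 bp from its start, and the Nsd2 ΔIE peak from 142820154 to 142823524 overlapped it over 2964 bp. A second body peak of 3349 bp was listed in Nsd2 fl/fl only, though it began only 207 bp beyond the Nsd2 ΔIE peak. The third Nsd2 fl/fl peak, 3684 bp from 142852897 to 142856580, lay at −2613 bp, upstream of the start site at 142850284, and the nearest Nsd2 ΔIE peak to it was 21777 bp away.

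Phlda2 and Ascl2 went the other way. The Phlda2 peak of Nsd2 fl/fl, 8030 bp from 143042384 to 143050413, lay in Slc22a18, and 2 Nsd2 ΔIE peaks of 6316 and 3990 bp overlapped it over 7168 bp, or 89.3%. A further Nsd2 ΔIE peak of 3060 bp, rank 21887, brought the gene's length to 13366 bp. For Ascl2, the peak over the start site at 142523001 was 3908 bp wide with a signal of 22099 in Nsd2 fl/fl, rank 19168 and thus among the weakest of that list. In Nsd2 ΔIE it was 7266 bp wide with a signal of 53299, rank 500 and thus among the strongest, and the shared stretch was 2518 bp. It was the highest-ranked imprinted-gene peak of the Nsd2 ΔIE library, as the Cdkn1c promoter peak was of the Nsd2 fl/fl library. Ascl2 also had an Nsd2 fl/fl peak of 3677 bp, which ended 62 bp short of the wide Nsd2 ΔIE peak. A further Nsd2 ΔIE peak of 3645 bp lay 27324 bp from the Ascl2 start.

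From Ascl2 to Phlda2, a window of 536324 bp at chr7:142520559-143056882 that was drawn after the peaks had been seen, each library listed 31 peaks. They covered 33.8% of the window in control and 26.5% in knockout colon, while peaks covered 4.20% and 3.59% of the autosomes. In this window 19 Nsd2 fl/fl and 22 Nsd2 ΔIE peaks overlapped one of the other library, and 70301 bp were covered in both. A stretch of 1 Mb centred there held 43 peaks in control and 42 in knockout colon, against medians of 4.5 and 6 over 2460 autosomal tiles of that size. As many or more were found in 26 tiles of the Nsd2 fl/fl list and 55 of the Nsd2 ΔIE list. Most of the peaks were assigned to other genes of the domain, with 12 of the 31 assigned to the imprinted genes in control and 9 of the 31 in knockout colon.

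Most of the difference in covered length within the domain lay on the Cdkn1c side and over Kcnq1ot1. Between the start sites of Kcnq1ot1 and Cdkn1c, 14 Nsd2 fl/fl peaks covered 40.7% of 164504 bp and 11 Nsd2 ΔIE peaks covered 25.5%. Over the Kcnq1ot1 transcript itself, 83437 bp, the shares were 13.1% and 4.04%. Of 10 neighbouring genes that are not in the group, 9 had a peak in control and 7 in knockout colon, and all 7 had one in both. Osbpl5, an oxysterol-binding protein gene, had 5 peaks in each library, all 5 overlapped, covering 31799 and 24186 bp. Cd81, a tetraspanin gene, had 17364 and 4248 bp, Tssc4 had 17283 and 10394 bp, and Kcnq1, the potassium channel gene that contains Kcnq1ot1, had 6832 and 3205 bp. The Kcnq1 values are of peaks at different places. The Nsd2 fl/fl one was overlapped by an Nsd2 ΔIE peak of 4491 bp assigned to Gm28821, and the Nsd2 ΔIE one lay at the Kcnq1 promoter. In all, 13 Nsd2 fl/fl and 14 Nsd2 ΔIE peaks lay in an exon or intron of Kcnq1, most of them assigned to other genes. Trpm5, the cation channel of taste and tuft cells, had 4425 and 15458 bp, and Tspan32 had 4936 and 8619 bp. The lengths of Tssc4 and Trpm5 depend on the naming of peaks. An Nsd2 fl/fl peak of 10686 bp assigned to Tssc4 lay mostly inside Trpm5. An Nsd2 ΔIE peak of 9961 bp that overlapped it was assigned to Trpm5.

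**Figure D2:**
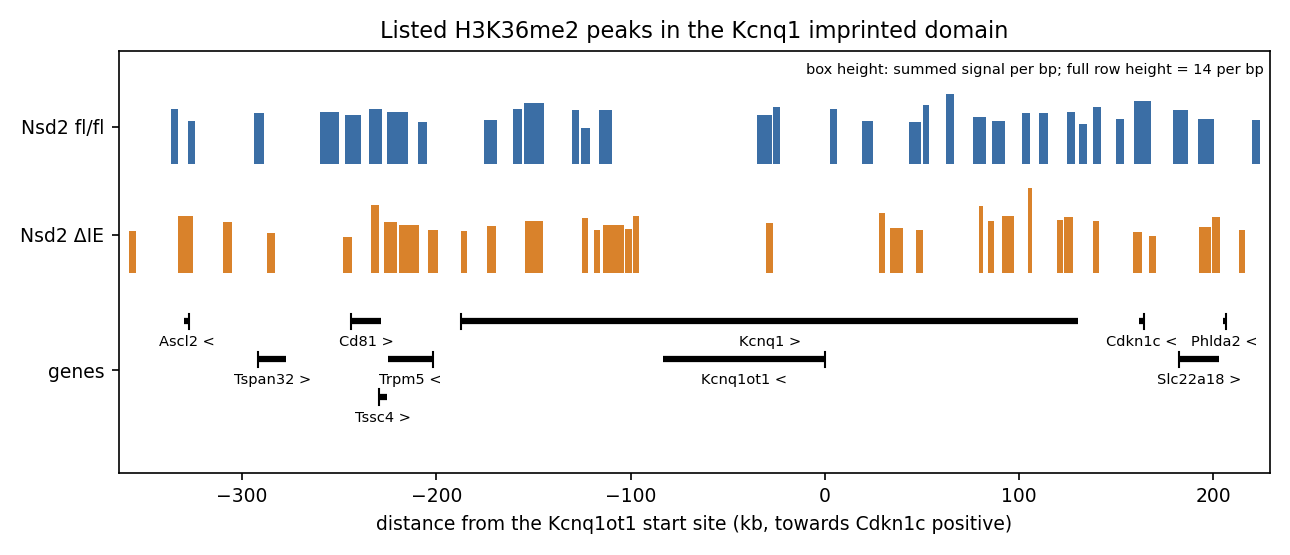
Listed H3K36me2 peaks around the Kcnq1ot1 cluster by distance from the Kcnq1ot1 start site (x axis, kb), for Nsd2 fl/fl (blue) and Nsd2 ΔIE (orange); box width is the peak's width, box height its summed signal per bp, and black bars are gene positions with a tick at the start. Both libraries fill the domain densely, the Nsd2 fl/fl boxes between 0 and the Cdkn1c start cover 40.7% and the Nsd2 ΔIE boxes 25.5%, and the Cdkn1c start lies under a wide box in control and between 2 narrow ones in knockout colon.

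The neighbouring Igf2-H19 cluster showed how the naming of peaks bears on these counts. Igf2, which encodes insulin-like growth factor 2, and H19, a maternally expressed noncoding RNA, had no peak assigned to them in either library. Yet from Mir675, the miRNA gene within H19, to Mir483, the miRNA gene within Igf2, a stretch of 77933 bp, 4 Nsd2 fl/fl peaks covered 35.1% and 6 Nsd2 ΔIE peaks covered 26.7%. The authors' annotation gave them to the noncoding gene Gm33148 and to Mir483. In both libraries 2 of them overlapped one of the other library. A peak of 2749 bp at chr7:142207375-142210123, over Mir483 itself, was listed in Nsd2 ΔIE only. The next gene, Ins2, an insulin gene, had 3 peaks of 12388 bp in control and 1 peak of 3388 bp in knockout colon. Mrpl23, on the other side of H19, had 2 peaks in each library, of 9256 and 6650 bp.

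At the Igf2r-Airn cluster on chromosome 17, control colon had 5 peaks and knockout colon 4, and 1 of each library overlapped. The peaks covered 11.7% and 6.82% of the 177479 bp of both genes, against 4.20% and 3.59% of the autosomes. The 1 Mb around the cluster contained 13 peaks in control and 17 in knockout colon, where the median tile had 4.5 and 6. Of the 2460 tiles, 602 in control and 504 in knockout colon reached these numbers. Igf2r, the receptor that clears insulin-like growth factor 2, is expressed from the maternal copy, and Airn is the noncoding RNA that runs across it from the paternal copy. The Igf2r start site was covered by a peak in Nsd2 ΔIE only, 2641 bp at chr17:12988223-12990863. This peak had a signal of 21079, below the lowest signal of the Nsd2 fl/fl list, and rank 10709. The nearest Nsd2 fl/fl peak to it lay 11545 bp away. The Igf2r gene, 87301 bp, was nevertheless covered more in Nsd2 fl/fl, with 5 peaks over 23.8% of its length against 3 peaks over 7.20% in Nsd2 ΔIE. Peaks in its body were assigned to other genes, Airn among them.

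Airn itself had 3 peaks of 13680 bp in control and 1 of 3956 bp in knockout colon, a log2 ratio of −1.79. Of the Nsd2 fl/fl peaks, those of 3229 and 3446 bp lay in exons of Igf2r upstream of the Airn start, and that of 7005 bp, from 12969673 to 12976677 and rank 3234, lay in the first part of the Airn transcript. The Nsd2 ΔIE peak, from 12935244 to 12939199, was 485 bp short of the nearest Nsd2 fl/fl one. No peak lay within 3 kb of the Airn start in either library. Over the whole of Igf2r and Airn 1511 bp were covered in both libraries, 7.27% of the length covered in Nsd2 fl/fl and 12.5% of that in Nsd2 ΔIE. By number, 1 of 5 peaks in control and 1 of 4 in knockout colon overlapped, against 34.1% and 30.7% of all peaks, and these are few peaks.

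**Figure D3:**
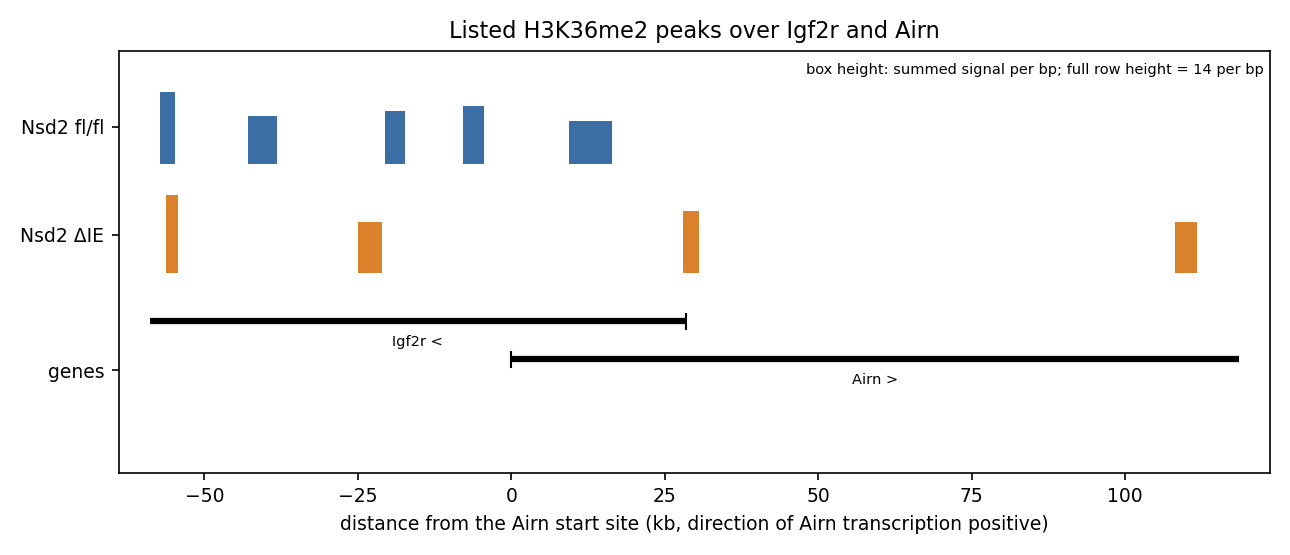
Listed H3K36me2 peaks over Igf2r and Airn by distance from the Airn start site (x axis, kb), for Nsd2 fl/fl (blue) and Nsd2 ΔIE (orange); box width is the peak's width, box height its summed signal per bp, and black bars are the genes with a tick at each start. The 5 Nsd2 fl/fl boxes all lie over Igf2r, no box touches the Airn start, and the box over the Igf2r start is orange only.

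The Dlk1-Dio3 cluster on chromosome 12 held more peaks in Nsd2 ΔIE than in Nsd2 fl/fl. Dlk1 encodes a Notch-like transmembrane protein, Dio3 the deiodinase that inactivates thyroid hormone, and between them lie noncoding RNA genes that host many miRNAs. From the start of Dlk1 to the end of Dio3, 829121 bp, 13 Nsd2 fl/fl peaks covered 60524 bp, or 7.30%, and 23 Nsd2 ΔIE peaks covered 105287 bp, or 12.7%. Overlap was found for 7 and 6 of them. A 1 Mb stretch centred there held 16 and 26 peaks, and 467 and 239 of the 2460 autosomal tiles held as many or more. Most of the 23 Nsd2 ΔIE peaks had signals from 16727 to 21391, below 21783, where the Nsd2 fl/fl list starts. The part of the different starting signals in these numbers was not tested.

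Dlk1 had 2 peaks of 12502 bp in control and 3 of 12913 bp in knockout colon, a log2 ratio of 0.05. In Nsd2 fl/fl both were intergenic, at −47362 and −32292 bp from its start. In Nsd2 ΔIE a pair lay at −52447 and −46050 bp, and the third, 3054 bp from 109423043 to 109426096 and rank 20170, lay in an exon of Dlk1. The peak of Dio3, 11518 bp downstream of its start, was 8420 bp wide with rank 1145 in Nsd2 fl/fl. In Nsd2 ΔIE it lay 11004 bp downstream and was 3736 bp wide with rank 17783, and the 2 overlapped over 3222 bp. Just upstream, at the antisense gene Dio3os, Nsd2 ΔIE had a single peak of 16144 bp with a signal of 95208, rank 42 of its list, where Nsd2 fl/fl had peaks of 4758 and 5181 bp.

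Meg3, Rian, Mirg and Rtl1 had no peak assigned to them, but 4 Nsd2 fl/fl and 6 Nsd2 ΔIE peaks of the domain were assigned to miRNA genes. The one miRNA gene of the domain with a peak assigned to it in both libraries was Mir369, with 4614 bp at chr12:109708027-109712640 in control and 3682 bp at chr12:109708350-109712031 in knockout colon, the second lying within the first. Another pair overlapped under different names: the Nsd2 ΔIE peak assigned to Mir337, at chr12:109551371-109553547, lay within the Nsd2 fl/fl peak assigned to Mir3070a, at chr12:109547909-109554417. The mature miRNAs of Mir369 and of Mir483, the gene in Igf2 that had a peak over it in Nsd2 ΔIE only, are shown here from RefSeq (GRCm38.p6), with the seed, bases 2 to 8, in capitals. The 4 seeds differ.
mmu-miR-369-5p: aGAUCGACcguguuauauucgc
mmu-miR-369-3p: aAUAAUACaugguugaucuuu
mmu-miR-483-5p: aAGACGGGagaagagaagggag
mmu-miR-483-3p: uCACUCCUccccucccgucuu

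**Figure D4:**
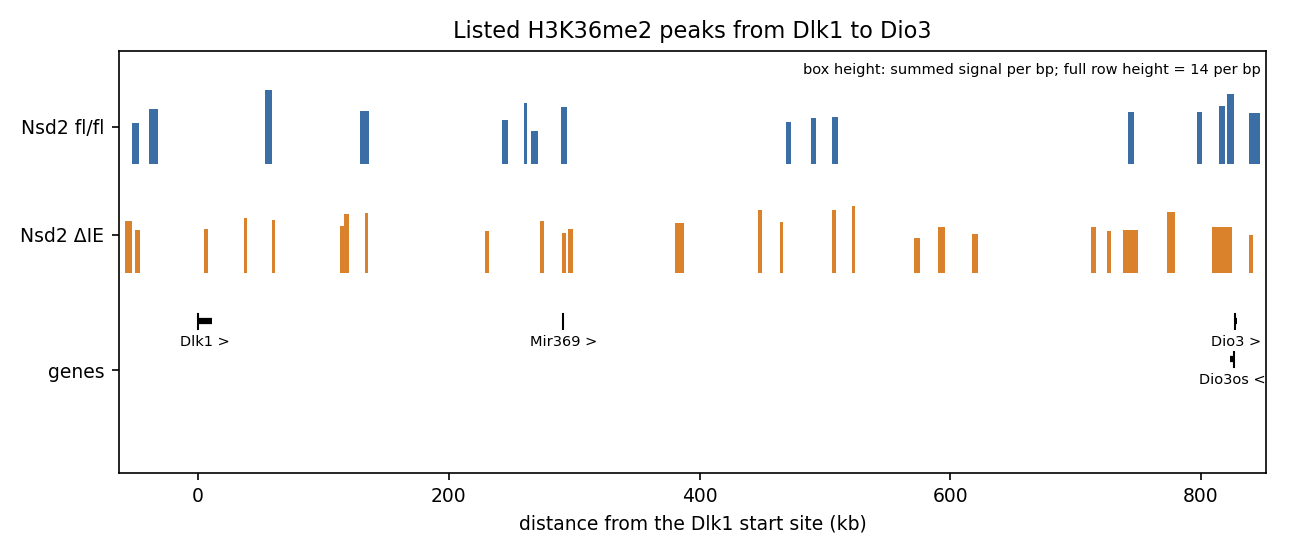
Listed H3K36me2 peaks from upstream of Dlk1 to downstream of Dio3 by distance from the Dlk1 start site (x axis, kb), for Nsd2 fl/fl (blue) and Nsd2 ΔIE (orange); box width is the peak's width, box height its summed signal per bp, and black bars or ticks are genes. More boxes are seen in Nsd2 ΔIE, 23 against 13 from Dlk1 to Dio3, and the widest, of 16144 bp, lies at Dio3os. Most of the 23 have summed signals below 21783, where the Nsd2 fl/fl list starts.

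The Snrpn-Ube3a cluster on chromosome 7 was nearly free of peaks. It contains 6 of the imprinted genes: Ube3a, an E3 ubiquitin ligase expressed from the maternal copy in neurons, and the paternally expressed Snrpn, Ndn, Magel2, Mkrn3 and Peg12. The only member peak was that of Ube3a in Nsd2 fl/fl, 4169 bp from 58882284 to 58886452, which began 2991 bp from the start site and ranked 15470 of 19976. The nearest Nsd2 ΔIE peak was 401212 bp away. Of 252 RefSeq genes of all types from Ube3a to Peg12, 2 had a peak in control and 0 in knockout colon. The shares over all genes, 30.3% and 32.7%, are of protein-coding and long noncoding genes only, so the 2 sets are not alike. In the Nsd2 ΔIE list nothing was called for 4.64 Mb, from 58481071 in front of Ube3a to 63118443 beyond Peg12, and 18 of 23488 stretches between neighbouring peaks were at least as long. In the Nsd2 fl/fl list the stretch behind the Ube3a peak was 2.95 Mb long, and 71 of 19950 were at least as long. The median stretch was 25.9 kb in Nsd2 ΔIE and 29.3 kb in Nsd2 fl/fl. Atp10a, the gene on the other side of Ube3a, had 1 peak of 4477 bp in control and 4 of 12165 bp in knockout colon.

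Peg3, a paternally expressed zinc finger gene, had 1 assigned peak in each library, and these were close to each other in position and width. A promoter peak ran from 6729778 to 6734041 in Nsd2 fl/fl, 4264 bp, and from 6729251 to 6733273 in Nsd2 ΔIE, 4023 bp, and the 2 shared 3496 bp, 82.0% of the first and 86.9% of the second. The first covered the start site at 6733418, while the second ended short of it and covered the start at 6729482 of another transcript. Their ranks were 5803 and 8895. Across the whole gene, 1 Nsd2 fl/fl peak covered 3641 of 26528 bp and 2 Nsd2 ΔIE peaks covered 6897 bp, the second of which was assigned to Peg3os. Usp29, which shares the Peg3 promoter region, had no peak of its own. An Nsd2 ΔIE peak of 3820 bp, labelled as in the last exon of a single Usp29 transcript, was assigned to Gm51257. Peg3 and Ascl2 were the only imprinted genes with a peak within 1 kb of a TSS in both libraries.

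On chromosome 2, the promoter peaks of Blcap, H13 and Gnas were each listed in 1 library only. Over the whole lists, 34.1% of the Nsd2 fl/fl and 30.7% of the Nsd2 ΔIE peaks overlapped one of the other library. Blcap, a small membrane protein gene, had a promoter peak of 6358 bp with rank 3655 in Nsd2 fl/fl, and the nearest Nsd2 ΔIE peak was 28823 bp away. H13, a signal peptide peptidase gene, had one of 3229 bp with rank 16285 in Nsd2 ΔIE only, and Gnas, which encodes the stimulatory G protein alpha subunit, one of 3594 bp with rank 21207 in Nsd2 ΔIE only. Mcts2, a retrogene inside H13, had 2 peaks of 7706 bp in control and 1 of 2227 bp in knockout colon, and the pair near the end of H13 shared 2146 bp. Across the whole of H13, 39208 bp, 2 peaks in each library covered 19.7% in control and 13.9% in knockout colon. The Nsd2 fl/fl peaks inside H13 were assigned to Mcts2. For the Gnas peak, the nearest Nsd2 fl/fl peak was 54428 bp away.

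Trappc9 on chromosome 15, a vesicle tethering subunit gene, contains the noncoding gene Peg13 in an intron. Its assigned peaks covered 7044 bp in control and 10083 bp in knockout colon, 2 in each, none overlapped. The Nsd2 ΔIE peak over a start site was 6232 bp wide, from 72928302 to 72934533, with rank 1701, while the promoter-flank peak of Nsd2 fl/fl, 3504 bp, began 1484 bp beyond it. Across the whole gene, 471618 bp, 13 Nsd2 fl/fl and 21 Nsd2 ΔIE peaks covered 12.2% and 14.5%, most of them assigned to other genes. In all, 3469 bp were covered in both, and 2 peaks of each library overlapped, which is 15.4% and 9.52% of them, against 34.1% and 30.7% of all peaks.

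The remaining imprinted genes with peaks were each the only one in their cluster with a peak assigned. Rasgrf1, a Ras guanine nucleotide exchange factor gene on chromosome 9, had 3 peaks of 13243 bp in control and 2 of 6096 bp in knockout colon, none overlapped. Near the end of Rasgrf1, a peak assigned to Ctsh was 10320 bp wide with a signal of 74288 in Nsd2 fl/fl, and a narrower one of 2550 bp lay within it in Nsd2 ΔIE. Ppp1r9a on chromosome 6, which encodes the actin-binding neurabin, had 2 peaks of 9485 bp and 3 of 13353 bp at different places in its introns and promoter flank. Ddc on chromosome 11, which encodes the decarboxylase that makes serotonin and dopamine, had a promoter peak of 3874 bp in Nsd2 fl/fl only. Commd1 on the same chromosome had one of 3353 bp in Nsd2 ΔIE only, while an Nsd2 fl/fl peak of 5014 bp in its intron was assigned to Gm24917. Plagl1 and Grb10, without an assigned peak, each held 1 peak named for another gene, of 4837 bp in control and of 3092 bp in knockout colon.

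By feature, the peaks of imprinted genes were spread much as those of all genes. Promoter peaks, within 3 kb of a TSS, were 9 of 32 in Nsd2 fl/fl, or 28.1% (95% Wilson interval 15.6% to 45.4%), against 32.1% of all peaks. In Nsd2 ΔIE they were 10 of 29, or 34.5% (19.9% to 52.7%), against 27.9%. Intergenic peaks were 7 and 6, or 21.9% and 20.7%, against 3598 of the 19976 and 4735 of the 23518 peaks of the whole lists. In Nsd2 fl/fl 6 of the 32 peaks and in Nsd2 ΔIE 5 of the 29 were labelled as lying in an exon or intron of a gene other than the one they were assigned to. These were those of Airn in Igf2r, of Cdkn1c in Kcnq1 and of Phlda2 in Slc22a18. The Mcts2 peaks, which were labelled 3′ UTR and lay inside H13, are not in these counts.

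By position, 11 of the 32 Nsd2 fl/fl peaks overlapped a peak of the other library by at least 1 bp, a share of 34.4% (20.4% to 51.7%), against 34.1% of all peaks in the list. Of the 29 Nsd2 ΔIE peaks 13 did, 44.8% (28.4% to 62.5%), against 30.7%. By strength, the peaks ranged over nearly the whole of each list. The percentile of a peak's signal in its own list had a median of 46.4 in Nsd2 fl/fl, from 1.79 for a Rasgrf1 peak to 97.3 for the Cdkn1c promoter. In Nsd2 ΔIE the median was 58.6, from 6.93 for a Phlda2 peak to 97.9 for the Ascl2 promoter. In each library 7 of the peaks were among the strongest 25% of the list and 7 among the weakest 25%.

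**Figure D5:**
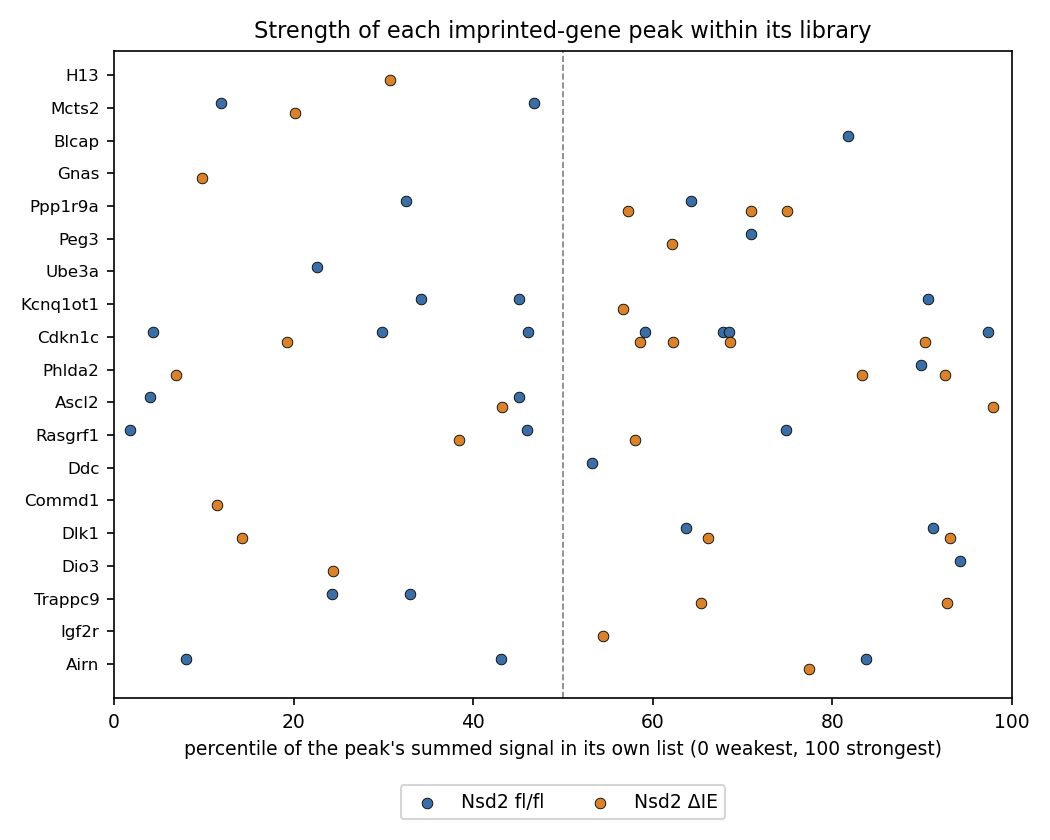
Percentile of the summed signal of every imprinted-gene peak within its own list (x axis, 0 weakest to 100 strongest), by gene (y axis), for the 32 peaks of Nsd2 fl/fl (blue) and the 29 of Nsd2 ΔIE (orange); the dashed line is the list's median. The points spread over the whole axis, with the Cdkn1c promoter at 97.3 in Nsd2 fl/fl and the Ascl2 promoter at 97.9 in Nsd2 ΔIE as the highest of each library.

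Outside the group, 42 genes next to imprinted genes were counted in the same way. Of these 24 had a peak in Nsd2 fl/fl, 23 in Nsd2 ΔIE and 19 in both, with less covered length in Nsd2 ΔIE for 16, similar for 5 and more for 7. The shares of all RefSeq genes with a peak were 30.3%, 32.7% and 19.6%, and the split over all genes with a peak was 43.3%, 16.9% and 39.7%. The neighbours of Kcnq1ot1 made up 9 of the 24 and 7 of the 23.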

How the data were processed

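Peaks of 1 H3K36me2 CUT&Tag library per genotype were analysed. The authors called them in each library separately and deposited each with its width in bp, a summed signal that is not stated to be corrected for depth, its nearest gene and its genomic feature. The submitters' processing notes name Bowtie2, deepTools, SEACR and ChIPseeker, without versions, and hg38, a human build; the coordinates are those of mouse, and their assembly is not named. Positions are given as listed, and RefSeq (GRCm38.p6) served only for names, gene order, gene lengths and sequences. All 46 genes were found there. Depth is unknown, so no precision on a single peak can be given.

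Lengths, overlaps of at least 1 bp, ranks and Wilson intervals were computed in Python 3.11.15 with pandas 2.3.3, numpy 2.4.6 and scipy 1.17.1, after checks on simulated lists. The members, the lists of other genes and the rules were chosen with earlier results of these data known. Every member with a peak was named, and of other genes with peaks in both libraries at most 10. Neighbour and regulator genes beyond these, the windows and the 2 added promoters were chosen after their values were seen. The alternatives covered peak strength, number, promoter distance, the log2 limit, overlap and naming; the one that assigns a peak to the gene in which it lies was added after seeing the data. A result on 1 neighbouring gene is not reported here.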

Additional observations from a re-analysis of the deposited data

How the results depend on the processing

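No paired analysis was possible because there was 1 library per genotype and no result came from a test. Of 77 values under alternatives, 57 stayed within 1.5 times or within their interval and 20 moved, and the cause was not tested where it moved. The log2 ratios of covered length all counted among the 57, although that of the Kcnq1ot1 cluster went from −0.51 to −0.02 over the strongest 50%. The number that stayed is therefore no measure of how firm these ratios are. The order of less and more did not hold throughout: 9 genes had less and 7 more as reported, against 6 and 7 with promoter peaks only and 7 and 7 by number of peaks. Over the strongest 50% of each list, 4 imprinted genes had more length. The covered lengths in control and knockout colon were then 89941 and 83473 bp over all imprinted genes, a log2 ratio of −0.11 against −0.44, and 37293 and 36680 bp over the Kcnq1ot1 cluster, −0.02 against −0.51. With equal numbers of peaks, 9 genes had less and 4 more length, and the genes with a peak went from 15 and 16 to 15 and 14. The covered lengths were then 155046 and 101149 bp over all imprinted genes, a log2 ratio of −0.62. Over the Kcnq1ot1 cluster they were 64301 and 41946 bp, also −0.62. With promoter peaks only, 9 genes had a peak in Nsd2 fl/fl, 9 in Nsd2 ΔIE and 4 in both, and 1 had similar length. Within 1 kb of a TSS the numbers with a peak were 5, 7 and 2. With a log2 limit of 1, 7 genes had similar and 4 more length, and by number of peaks 5 were similar. A reciprocal overlap of 50% left 18.8% of the Nsd2 fl/fl and 20.7% of the Nsd2 ΔIE peaks overlapped. With all genes between the outermost members, covered lengths were 434734 and 411710 bp, and 184896 and 151640 bp for the Kcnq1ot1 cluster. Assigning a peak to the gene in which it lies, an alternative added after seeing the data, gave 18 and 17 genes with a peak, 13 in both, with 12 less, 4 similar and 6 more. The lists hold no p- or q-values and no depth, so neither a stricter call nor a correction for depth could be made.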

Other observations

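Genes that set, keep or erase imprints were listed apart from the imprinted genes. Of 18 such genes, 8 had an H3K36me2 peak in Nsd2 fl/fl, 7 in Nsd2 ΔIE and 4 in both, against 30.3%, 32.7% and 19.6% of all RefSeq protein-coding and long noncoding RNA genes. Dnmt3a, the DNA methyltransferase that establishes most germ-line imprints, had 3 peaks of 12428 bp in Nsd2 fl/fl and 4 of 18967 bp in Nsd2 ΔIE, a log2 ratio of 0.61, and none of them overlapped. Uhrf1, which brings the maintenance methyltransferase to replicated DNA, had 1 peak in each library, of 6674 and 3106 bp, and these overlapped. Tet3, a dioxygenase that oxidises 5-methylcytosine, had 7828 and 7087 bp. Nsd1, the other major H3K36 dimethyltransferase, had 4422 and 3044 bp. Peaks of Dnmt3b (6775 bp), Dnmt3l (3694 bp), Tet1 (5147 bp) and Kdm1b (2908 bp) were listed in Nsd2 fl/fl only, and those of Dnmt1 (2048 bp), Zfp445 (2931 bp) and Tet2 (8575 bp) in Nsd2 ΔIE only.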
